A study of Mus musculus with 8 samples.

Results

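The mesothelium is the flat cell layer that covers the outer face of the colon and lines the peritoneal cavity, and 8 genes that mark it were examined: Upk1b, Upk3b, Msln, Muc16, Wt1, Lrrn4, Gpm6a and Efemp1. They were taken by name, as probe sets whose only annotated symbol was one of these genes. All 8 were measured, with 1 probe set each, among the 16645 genes of the array. Each of the 8 had a higher mean in mice with appendicitis and appendicectomy (AA) than in mice with sham operations (SS), by 0.18 to 1.46 on the log2 scale, and none passed the test over all probe sets. The differences were larger in batch 2 than in batch 1, though the test of that did not pass adjusted over all probe sets. In batch 2 both AA arrays exceeded both SS arrays in 8 of 8 genes (21.1% of all tested probe sets), and in batch 1 they did so in 0 of 8 (21.4%). The genes rose and fell together over the arrays, so such counts are not 8 separate observations.

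Mesothelial cells make a lubricated, non-adhesive surface with a thick glycocalyx, and they arise from the coelomic lining of the embryo. They sense injury and infection in the peritoneal cavity, release chemokines and matrix, and control the fibrin deposits that lead to adhesions. In the bowel they form the serosa, outside the muscle coat and next to the mesenteric fat. In a full-thickness piece their RNA would be a small part, and their share in these pieces was not measured.

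Pieces of the colon at its most distal end came from BALB/c mice, an inbred strain, all males 5 weeks old. The 4 AA mice had appendicitis induced and the appendix removed 1 week later, at the caecal end of the colon. The 4 SS mice had a sham laparotomy followed by another after 1 week, so every animal had its abdomen opened on both occasions and no group without surgery was included. Each piece was extracted separately and hybridised to its own Affymetrix MoGene 1.0 ST array, from 100 ng of RNA. The labels put AA replicates 1 and 2 with SS replicates 1 and 2 in batch 1, and replicates 3 and 4 of each group in batch 2. Animals are not named there, and the p-values hence reflect the spread among these samples, which may be partly technical.

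Values are the deposited log2 expression values, on which a difference of 1 is a 2-fold difference. The batch means of every probe set were equal to within 0.00006, so levels can be set side by side within a batch but not between batches. In this pulverised mixture of cell types, fewer mesothelial cells and less RNA per mesothelial cell cannot be told apart. Of 16 genes of the colon epithelium, 15 lay above 7.13, the median level over tested probe sets; they mark colon or gut lining and do not tell distal from proximal colon. Of the 8 mesothelial genes 7 had a mean above that level. Muc16, at a mean of 5.66, did not, and the file gives no call of detection.

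Over the whole table limma, a linear model with moderated variances fitted here with batch and group as terms, called 0 of 18154 probe sets at a Benjamini-Hochberg adjusted p under 0.05 (0%). At an unadjusted p under 0.05 it gave 977 higher in AA (5.38%) and 490 lower (2.7%). That split turned with scaling, to 820 higher and 920 lower after quantile normalization and 691 and 823 after median centring. The median difference over all tested probe sets was 0.0033, and 51% were higher in AA. Against this background, 4 of the 8 mesothelial genes were at an unadjusted p under 0.05, all higher in AA, and 8 of 8 had a mean difference above 0. Their median difference was 0.75, and 8 of 8 also stayed above 0 under both scalings.

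Among the surface proteins, Upk1b, a tetraspanin first described in the plaques of bladder urothelium, had the largest difference of the 8. It stood at 7.84, 7.61, 9.58 and 7.63 in AA replicates 1 to 4 and at 7.63, 6.65, 6.70 and 5.83 in SS replicates 1 to 4. AA replicate 3 stood above the other AA arrays, SS replicate 4 was lowest, and the groups overlapped through SS replicate 1. The AA mean of 8.16 ± 0.95 (SD, n = 4) compared with an SS mean of 6.70 ± 0.73 (SD, n = 4). The AA mean was 2.76-fold higher, with a 95% interval of 0.36 to 2.57 on the log2 scale (limma adjusted p = 0.503, unadjusted 0.0150). Without AA replicate 3 the difference was 0.90.

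Upk3b, a single-pass uroplakin and a standard marker of adult mesothelium, stood at 8.52, 8.16, 9.34 and 8.89 in AA and at 8.85, 8.001, 8.20 and 7.11 in SS. In batch 1 the highest value was that of SS replicate 1, and in batch 2 both AA arrays were above both SS arrays. The difference of 0.69 ± 0.36 (SE) had a 95% interval of -0.13 to 1.51 (limma adjusted p = 0.684).

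Msln encodes mesothelin, a protein anchored to the cell surface through a lipid, and Muc16 encodes the large membrane mucin known as CA125, which binds it. Msln stood at 8.11, 7.58, 8.79 and 8.40 in AA and at 8.05, 7.52, 7.49 and 6.57 in SS. Its difference was 0.81 ± 0.33 (SE), a 1.75-fold higher mean in AA (limma adjusted p = 0.587, unadjusted 0.0357).

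Muc16 stood at 6.09, 5.55, 7.61 and 5.75 in AA and at 5.92, 5.09, 4.84 and 4.45 in SS. Its probe set was annotated through a single cDNA record. As for Msln and Upk1b, SS replicate 1 lay between the AA arrays of its batch, and the other 3 SS arrays lay below every AA array of their own batch. The difference was 1.17 ± 0.46 (SE), a 2.26-fold higher mean in AA (limma adjusted p = 0.573, unadjusted 0.0306), and 0.63 without AA replicate 3.

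Wt1, the zinc finger transcription factor of the embryonic coelomic lining and of adult mesothelium, had the smallest standard error of the 8. It stood at 7.25, 7.12, 7.86 and 7.36 in AA and at 7.22, 7.01, 6.81 and 6.58 in SS. Its difference was 0.49 ± 0.19 (SE), with a 95% interval of 0.07 to 0.91 (limma adjusted p = 0.562, unadjusted 0.0277). As in Upk1b, Msln and Muc16, SS replicate 1 lay between the AA arrays of batch 1.

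Lrrn4 encodes a leucine-rich repeat membrane protein, found in neurons and used as a mesothelial marker. It stood at 7.50, 7.23, 8.67 and 7.44 in AA and at 7.74, 6.75, 6.95 and 6.16 in SS, a difference of 0.81 ± 0.38 (SE) (limma adjusted p = 0.644). Gpm6a encodes a proteolipid membrane glycoprotein, best known from growing neurites and also made by mesothelium. It stood at 8.09, 7.50, 9.02 and 8.30 in AA and at 8.55, 7.50, 7.83 and 6.49 in SS, a difference of 0.63 ± 0.43 (SE) (limma adjusted p = 0.764). In both genes SS replicate 1 was the highest array of batch 1, and for Gpm6a the SS mean of that batch was above the AA mean.

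Efemp1 encodes fibulin-3, a secreted extracellular matrix protein that fibroblasts make as well. It stood at 8.94, 8.18, 9.001 and 8.81 in AA and at 9.35, 8.11, 8.62 and 8.15 in SS. It departed from the other 7 in that SS replicate 1 was the highest of all 8 arrays and SS replicate 2 the lowest. The difference of 0.18 ± 0.29 (SE) had a 95% interval of -0.47 to 0.83 (limma adjusted p = 0.916).

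**Figure D1:**
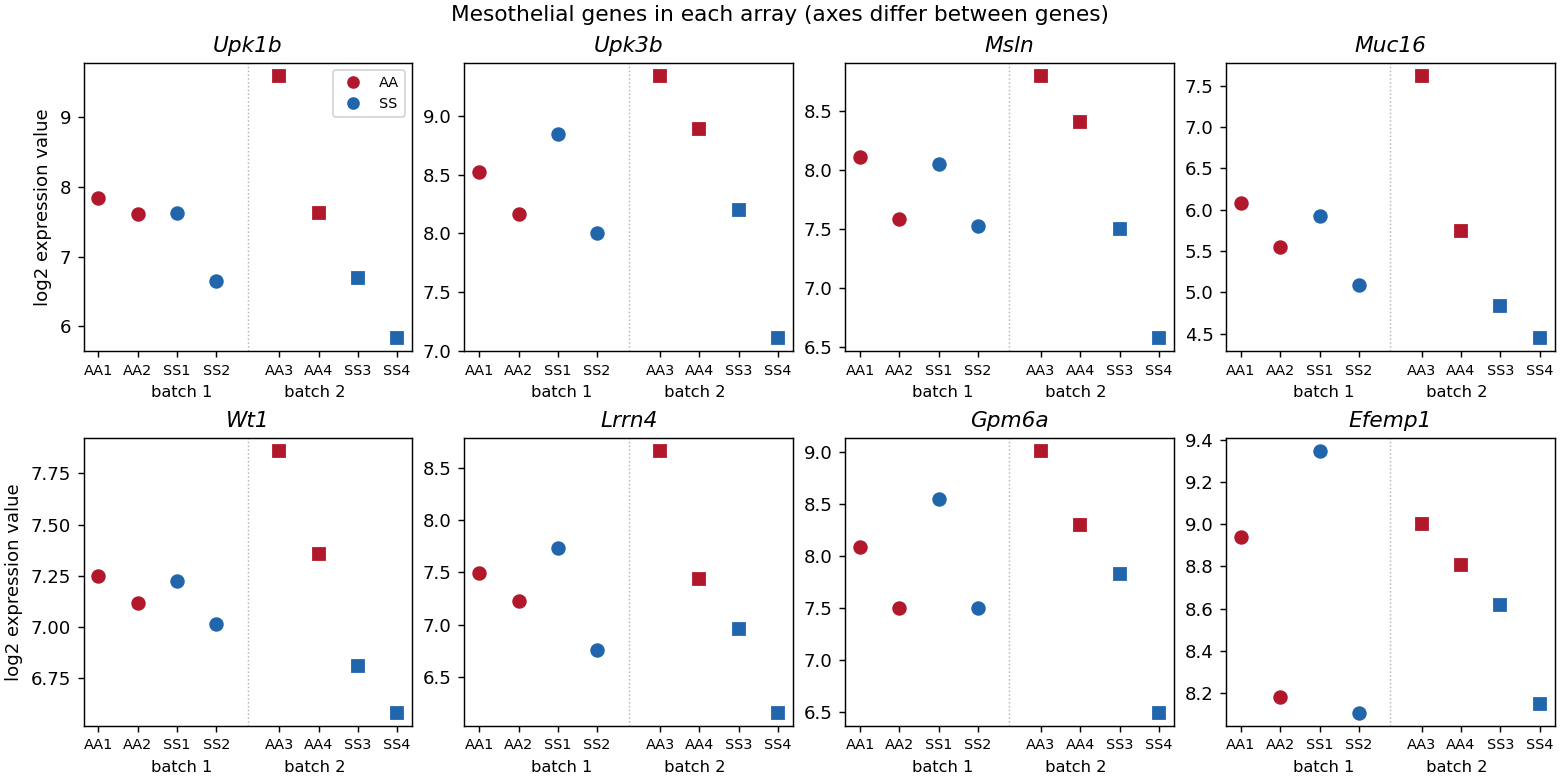
Deposited log2 expression value (vertical axis, a separate scale for each gene) of each mesothelial gene in each array, with AA in red and SS in blue; circles are batch 1, squares batch 2, and each point is 1 array. In batch 2 (right of each dotted line) the order was AA replicate 3, AA replicate 4, SS replicate 3, SS replicate 4 in 8 of 8 genes, while in batch 1 SS replicate 1 lay above AA replicate 1 in 4 of 8.

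Most genes shared the order of the arrays. AA replicate 3 was the highest array in 7 of 8 genes (10.1% of all tested probe sets) and SS replicate 4 the lowest in 7 of 8 (11%), although these ranks cross the centred batches. Within batch 2, which needs no such comparison, the order from high to low was AA replicate 3, AA replicate 4, SS replicate 3 and SS replicate 4 in 8 of 8 genes, an order found in 6.05% of tested probe sets. Within batch 1, SS replicate 1 exceeded SS replicate 2 in 8 of 8 genes, by 0.21 to 1.24. It was also the highest of the 4 SS arrays in 8 of 8 (30.1% of tested probe sets), a rank that crosses the batches. AA replicate 2 also exceeded SS replicate 2 in 8 of 8, by 0.0012 to 0.96, against 48.2% of tested probe sets. AA replicate 1 and SS replicate 1 were closer, with AA higher in 4 of 8 genes and a median gap of -0.11.

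Arrays of the same group and batch lay far apart. AA replicate 3 exceeded AA replicate 4 by a median of 0.61 over the 8 genes, with a range of 0.20 to 1.95. SS replicate 3 exceeded SS replicate 4 by a median of 0.83, with a range of 0.23 to 1.34. The range over the 8 arrays was 1.24 in Efemp1 and 1.28 in Wt1, and it reached 3.17 in Muc16 and 3.75 in Upk1b. Only 0.176% of tested probe sets had a wider range than Upk1b, and 3.89% had a wider one than Efemp1. None of the 8 had all 4 AA arrays above all 4 SS arrays (4.21% of tested probe sets) and none had all 4 below (2.18%), a comparison that also crosses the batches.

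The genes were then compared within each batch. In batch 1 the AA minus SS difference was above 0 in 5 of 8 genes (54.7% of tested probe sets), with a median of 0.06 and a range of -0.23 to 0.59. In batch 2 it was above 0 in 8 of 8 (49.9%), with a median of 1.498 and a range of 0.52 to 2.34. Both AA arrays exceeded both SS arrays in 0 of 8 genes in batch 1 (21.4% of tested probe sets) and in 8 of 8 in batch 2 (21.1%). Upk1b had the largest difference in each batch, at 0.59 and 2.34. Upk3b, Gpm6a and Efemp1 had a lower AA mean in batch 1, by -0.08, -0.23 and -0.17, and a higher one in batch 2, by 1.47, 1.499 and 0.52.

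The difference between batches was tested by a batch-by-group term in limma over all probe sets. It was larger in batch 2 in 8 of 8 genes, by 0.69 to 1.75. Adjusted over all probe sets 0 of the 8 passed, with adjusted p-values of 0.524 to 0.628, and of all 18154 probe sets none did (0%). At an unadjusted p under 0.05 stood 4 of the 8, Upk3b, Msln, Wt1 and Gpm6a, all with the larger difference in batch 2, against 4.04% of tested probe sets in that direction and 9.46% in either. For Msln the batch 2 difference exceeded that of batch 1 by 1.503 (95% interval 0.45 to 2.56), and for Wt1 by 0.85 (0.26 to 1.44). Within each batch a group held 2 arrays.

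**Figure D2:**
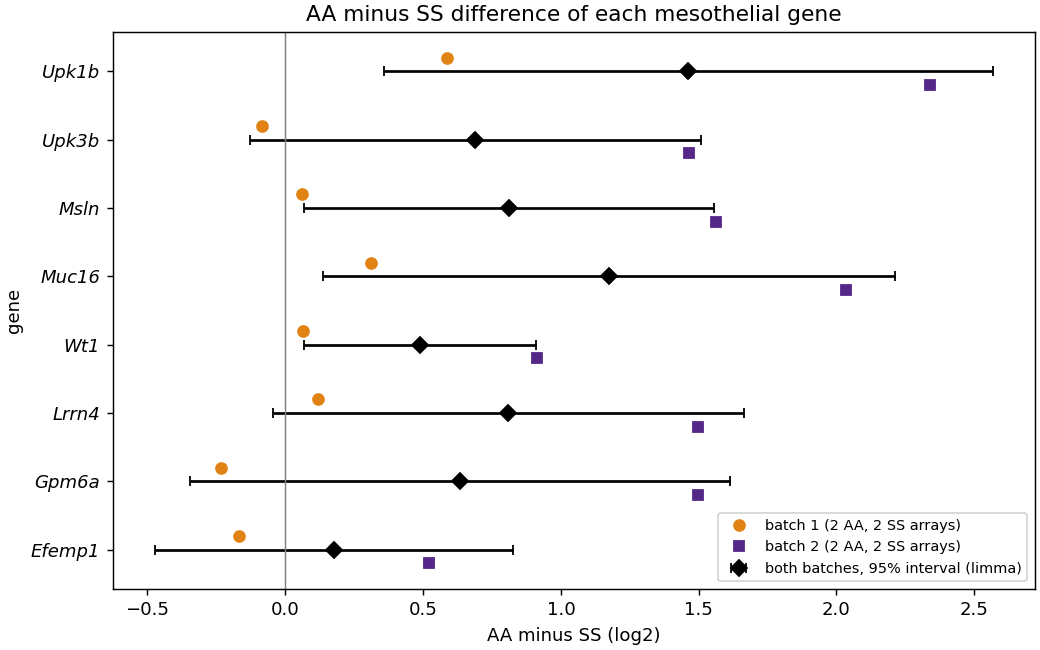
AA minus SS difference on the log2 scale (horizontal axis) of each mesothelial gene; diamonds with bars are the estimates over both batches with limma's 95% interval, circles batch 1 and squares batch 2. The batch 1 values lie between -0.23 and 0.59 and the batch 2 values between 0.52 and 2.34.

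Single arrays moved the size of the difference. Without AA replicate 3 the median over the 8 genes was 0.43, without SS replicate 4 it was 0.42, and without both it was 0.23, with 7 of 8 above 0. Without SS replicate 1 it was 1.04, and then 8 of 8 genes were at an unadjusted p under 0.05 and higher in AA, against 5.58% of tested probe sets. That array exceeded SS replicate 2, the other SS array of its batch, in 8 of 8 genes, so larger differences without it were built in. No gene passed adjusted over all probe sets in that fit either (0%), and adjusted p-values ran from 0.223 in Upk1b to 0.379 in Efemp1. The number at an unadjusted p under 0.05 was 6 with AA replicate 2 left out, 3 with AA replicate 1 left out, 2 with AA replicate 3, AA replicate 4 or SS replicate 2 left out, and 1 with SS replicate 3 or SS replicate 4 left out.

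SS replicate 1 also stood apart in adipocyte genes. The mean of the 12 measured adipocyte genes, after centring each gene on its mean over the 8 arrays, was 1.21 in that array and between -0.56 and 0.31 in the other 7. Their summed linear level ran from 1862 to 3312 in AA and from 2512 to 6311 in SS. All 12 had a lower mean in AA, the median difference being -0.47, and limma gave 0 of them an unadjusted p under 0.05. For all 12 adipocyte genes together, batch 1 showed a median of -0.88, against -0.13 for batch 2. None was higher in AA in batch 1, and only 2 of the 12 were in batch 2, Fabp4 among them. Fabp4, a fatty acid carrier of fat cells, differed by -2.24 in batch 1 and 0.14 in batch 2. Mesenteric fat borders the serosa, and the part of fat content in the mesothelial values was not tested.

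The 8 genes varied together. Over the 8 arrays Pearson's r between pairs ran from 0.61 to 0.99, with a median of 0.91 over 28 pairs. Pairs without Efemp1 ran from 0.86 to 0.99, and the 7 pairs with it from 0.61 to 0.83. Without AA replicate 3 and SS replicate 4, the arrays at either end, all pairs ran from 0.46 to 0.96 over 6 arrays. These are descriptions of 8 arrays whose batch means had been removed. Because the genes varied together, counts over them such as 8 of 8 are not independent.

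Other mesothelial genes were examined for how far the pattern reached, and not all of them followed it. Of 22 such genes 21 were measured, and 20 had a higher mean in AA, by a median of 0.36. At an unadjusted p under 0.05 were 8, all higher in AA (5.38% of tested probe sets), and 0 passed adjusted over all probe sets in limma. In batch 2 both AA arrays exceeded both SS arrays in 14 of 21 (21.1% of tested probe sets), with a median of 0.47. In batch 1 they did so in 4 of 21, close to the share of all tested probe sets (21.4%), with a median of 0.09. The mean of the centred genes was highest in AA replicate 3, at 0.53, and lowest in SS replicate 4, at -0.50, the same arrays as for the 8 genes.

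Aldh1a2, which makes retinoic acid and is active in the coelomic lining, differed by 1.30 ± 0.39 (SE) (limma adjusted p = 0.461, unadjusted 0.00909). It stood at 7.49, 8.62, 9.07 and 8.08 in AA and at 7.41, 7.14, 7.48 and 6.02 in SS. The groups did not overlap, with AA higher, as in 4.21% of tested probe sets, a comparison that crosses the batches. Aldh1a2 was higher in AA by 0.78 in batch 1 and by 1.82 in batch 2, with AA replicate 2 above AA replicate 1. Bnc1, the transcription factor basonuclin-1, differed by 0.54 ± 0.21 (SE) and Pdpn, the surface glycoprotein podoplanin also made by lymphatic vessels and fibroblasts, by 0.70 ± 0.27 (SE), with batch 1 differences of 0.09 and 0.32 and batch 2 differences of 1.00 and 1.08. The keratins Krt8, Krt18 and Krt19, which mesothelium shares with the colon epithelium, differed by 0.02, 0.20 and -0.03. Over the list, r with the mean of the 8 centred genes ran from -0.34 in Krt19 to 0.997 in Pkhd1l1. It was -0.07 in Calb2, 0.11 in Anxa8 and 0.23 in Tcf21. Tcf21 differed by 0.70 in batch 1 and 0.19 in batch 2, so more in batch 1, unlike the 8 genes.

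**Figure D3:**
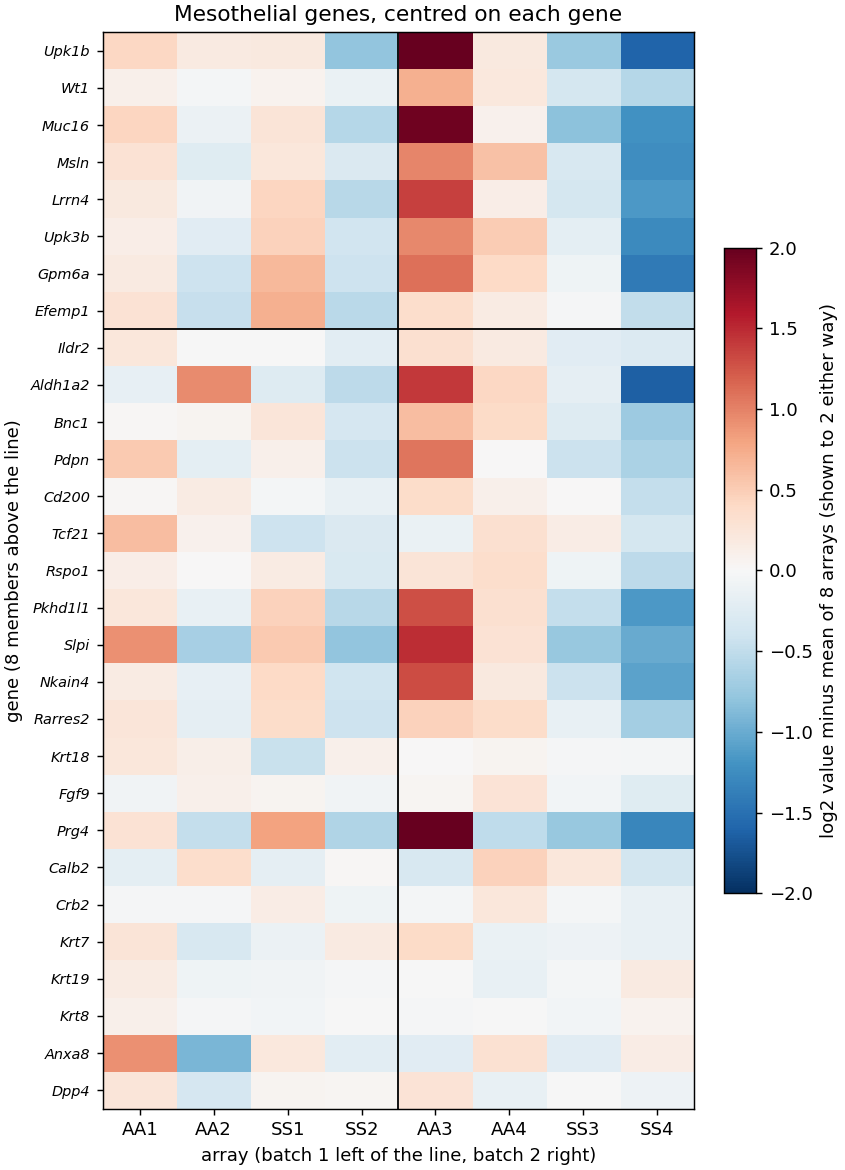
Log2 value minus the gene's mean over the 8 arrays (colour, shown to 2 in either direction) of the 8 mesothelial genes (above the horizontal line) and 21 other mesothelial genes (below it, by smallest p first), in arrays of batch 1 (left) and batch 2 (right). AA replicate 3 is high and SS replicate 4 low over most rows, while Krt8 and Krt19 range over 0.16 and 0.32 across the arrays.

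Relatives of the 8 genes were examined next. Of the uroplakin family and urothelial genes 5 of 8 were measured, with a median of -0.0054, and Upk1a and Upk2, partners of bladder plaques, differed by -0.06 and -0.01. Membrane mucins, 7 of 9 measured, had a median of 0.03 and differences of -0.11 to 0.52, with 0 at an unadjusted p under 0.05. The abundant gut mucins Muc3 and Muc13 differed by -0.04 and 0.03. Muc4, named after its value was seen, had the largest difference of the list, at 0.52 ± 0.37 (SE), with 1.18 in batch 1 and -0.14 in batch 2. Podocyte genes of the kidney, a cell type that also depends on Wt1, had a median of 0.10 over 6 genes that went both ways, with 2 at an unadjusted p under 0.05. Of these Synpo, an actin-binding protein, differed by -0.25 and Cdkn1c, an inhibitor of the cell cycle, by 0.29. In 3 of the 6 the groups did not overlap, with AA above in 1 (4.21% of tested probe sets) and below in 2 (2.18%), across the batches. Lrrn2, Lrrn3 and Gpm6b had a median of 0.14. Of the fibulin family 6 genes were measured, with Fbln1 and Fbln2 at 0.42 and 0.45 and Hmcn1 at -0.80, each at an unadjusted p under 0.05.

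Smooth muscle lies under the mesothelium in the bowel wall. All 18 smooth muscle genes had a higher mean in AA (median difference 0.38). In limma 10 had an unadjusted p under 0.05, all higher in AA (5.38% of tested probe sets), and 0 an adjusted one. Both AA arrays exceeded both SS arrays in 14 of 18 genes in batch 1 (21.4% of tested probe sets), with a median of 0.53. In batch 2 they did so in 0 of 18 (21.1%), with a median of 0.21. In batch 2 the difference was still above 0 in 17 of 18, and the batch-by-group term had an unadjusted p under 0.05 in 1 of 18. Actg2, an actin of enteric smooth muscle, differed by 1.09 in batch 1 and 0.22 in batch 2. In batch 2 AA replicate 3, the highest array in most mesothelial genes, had a smooth muscle mean of -0.16 and AA replicate 4 one of 0.35. The summed linear level of these muscle genes ran from 32064 to 49606 in AA and from 27541 to 36766 in SS.

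Fibroblast and matrix genes had a higher mean in AA in 15 of 16, and the median difference was 0.59. In limma 14 had an unadjusted p under 0.05, all higher in AA (5.38% of tested probe sets), and 0 an adjusted one. Their medians in the 2 batches were 0.51 and 0.77, and both AA arrays exceeded both SS arrays in 8 of 16 genes in batch 1 and 16 of 16 in batch 2. Col5a2, a collagen chain, differed by 0.64 in batch 1 and 0.60 in batch 2. The summed linear level ran from 22223 to 27009 in AA and from 14213 to 22392 in SS. The list mean had an r of 0.87 with that of the 8 mesothelial genes, and 0.81 without AA replicate 3 and SS replicate 4. The part of fibroblast content in the mesothelial values was not tested.

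Macrophage and monocyte genes were compared in the same way. Of 12 measured, 11 had a higher mean in AA, and the median difference was 0.46. In limma 2 had an unadjusted p under 0.05, both higher in AA (5.38% of tested probe sets), and 0 an adjusted one. Batch 1 gave a median of 0.08 and batch 2 one of 0.99. Both AA arrays exceeded both SS arrays in 0 of 12 in batch 1 (21.4% of tested probe sets). In batch 2 they did so in 10 of 12 (21.1%). The batch-by-group term had an unadjusted p under 0.05 in 0 of the 12, and whether it differed from that of the mesothelial genes was not tested. C1qa and C1qc, complement components made by macrophages, differed by 0.68 ± 0.29 (SE) and 0.69 ± 0.26 (SE). Their list mean peaked in AA replicate 3, at 0.95, and was lowest in SS replicate 4, at -0.48, and the summed linear level ran from 3612 to 9375 in AA and from 3350 to 5902 in SS. The part of macrophage content in the mesothelial values was not tested.

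Genes of resident macrophages of the peritoneal cavity, which float against the serosa, were examined apart. Of 10 measured, 7 had a higher mean in AA, the median difference being 0.04, or -0.32 in batch 1 and 0.40 in batch 2. At an unadjusted p under 0.05 in limma was 1, Adgre1, a surface receptor of mature macrophages, at 0.70 ± 0.29 (SE), with 0.29 in batch 1 and 1.11 in batch 2. Gata6, the transcription factor that defines these cells, differed by 0.03. It had the highest mean of the list, at 8.52, and which cells of the piece gave it was not tested. Of the 10 genes, 7 lay under the median level of 7.13. Their mean peaked in AA replicate 3, at 0.51, and came next in SS replicate 1, at 0.45. The summed linear level ran from 1079 to 1766 in AA and from 942 to 1583 in SS, and the part of these cells in the mesothelial values was not tested.

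**Figure D4:**
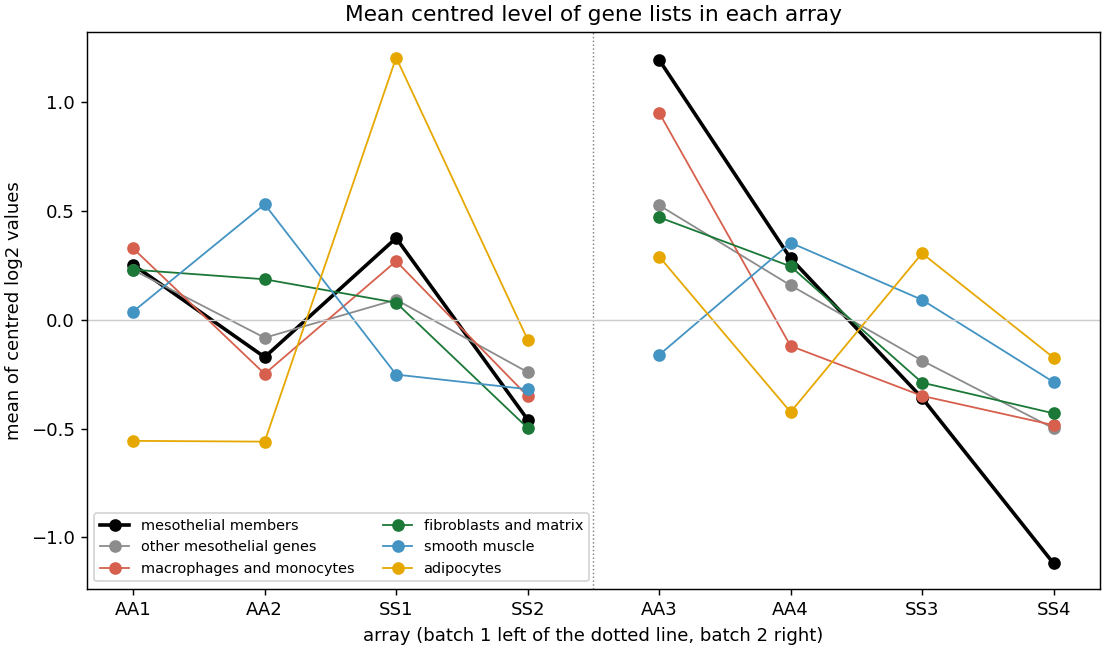
Mean of the centred log2 values (vertical axis) of 6 gene lists in each array (horizontal axis), batch 1 left of the dotted line and batch 2 right. The 8 mesothelial genes (thick black) peak in AA replicate 3 at 1.196 and are lowest in SS replicate 4 at -1.12, the macrophage line also peaks in AA replicate 3, the smooth muscle line is highest in AA replicate 2, and the adipocyte line peaks in SS replicate 1.

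Genes of peritoneal injury and fibrinolysis, a mixed list that also held cytokine, acute phase and clotting genes, had a higher mean in AA in 17 of 18. The gene with a lower mean was F3, at -0.44, with -0.71 in batch 1 and -0.17 in batch 2. Their median difference was 0.39, and limma gave 4 an unadjusted p under 0.05 and 0 an adjusted one. The medians were 0.15 in batch 1 and 0.79 in batch 2. Saa3, an acute phase protein of inflamed tissue, had the widest spread. Its AA mean was 9.36 ± 2.00 (SD, n = 4), against 6.76 ± 1.37 (SD, n = 4) for SS (limma adjusted p = 0.554). Has2, which makes hyaluronan, differed by 0.38 ± 0.15 (SE), and Plaur, the receptor that holds the fibrinolytic enzyme urokinase at the cell surface, by 0.33 ± 0.14 (SE). The list mean in AA replicate 3 was 1.18 and in the other 7 arrays -0.56 to 0.19, so it was led by that array.

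Genes tied to the change of mesothelial cells into matrix-making cells, most of which fibroblasts and muscle express as well, had a higher mean in AA in 15 of 17, by a median of 0.30. At an unadjusted p under 0.05 in limma were 9, all higher, and 0 adjusted. Ccn1, a matrix-associated signalling protein, differed by 1.24 in batch 1 and 0.95 in batch 2, and Zeb1, a transcription factor that represses epithelial genes, by 0.42 and 0.46. For these genes, as for Tgfb2 and Ccn2, the groups did not overlap, with AA higher, as in 4.21% of tested probe sets, but they were named for their small p. That comparison crosses the batches, and it held in 6 of the 17. Cdh1, the epithelial cadherin, differed by -0.17, and is made in colon chiefly by the mucosa.

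Neurons could add to Gpm6a and Lrrn4, and the lining of vessels lies close by. The part of either in the mesothelial values was not tested. The r with the mean of the 8 mesothelial genes was 0.31 for neuron and glia genes and 0.72 for endothelial genes. Without AA replicate 3 and SS replicate 4 these were 0.09 and 0.42. Enteric neuron and glia genes had a higher mean in AA in 13 of 14, the median difference being 0.28, with 0.22 in batch 1 and 0.29 in batch 2, and their list mean was highest in AA replicate 4. In limma 6 of the 14 had an unadjusted p under 0.05, all higher in AA (5.38% of tested probe sets), and 0 an adjusted one. In 2 of the 14 the groups did not overlap, with AA higher (4.21% of tested probe sets), a comparison that crosses the batches. These were Tac1, the precursor of the transmitter substance P, and Ret, a receptor of enteric neurons, with differences of 0.51 and 0.31. Endothelial genes had a median of 0.08 over 10 genes, and colon epithelium genes one of 0.08 over 16. The epithelial mean stayed between -0.18 and 0.17 in all 8 arrays, where that of the mesothelial genes went from -1.12 to 1.196.

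**Figure D5:**
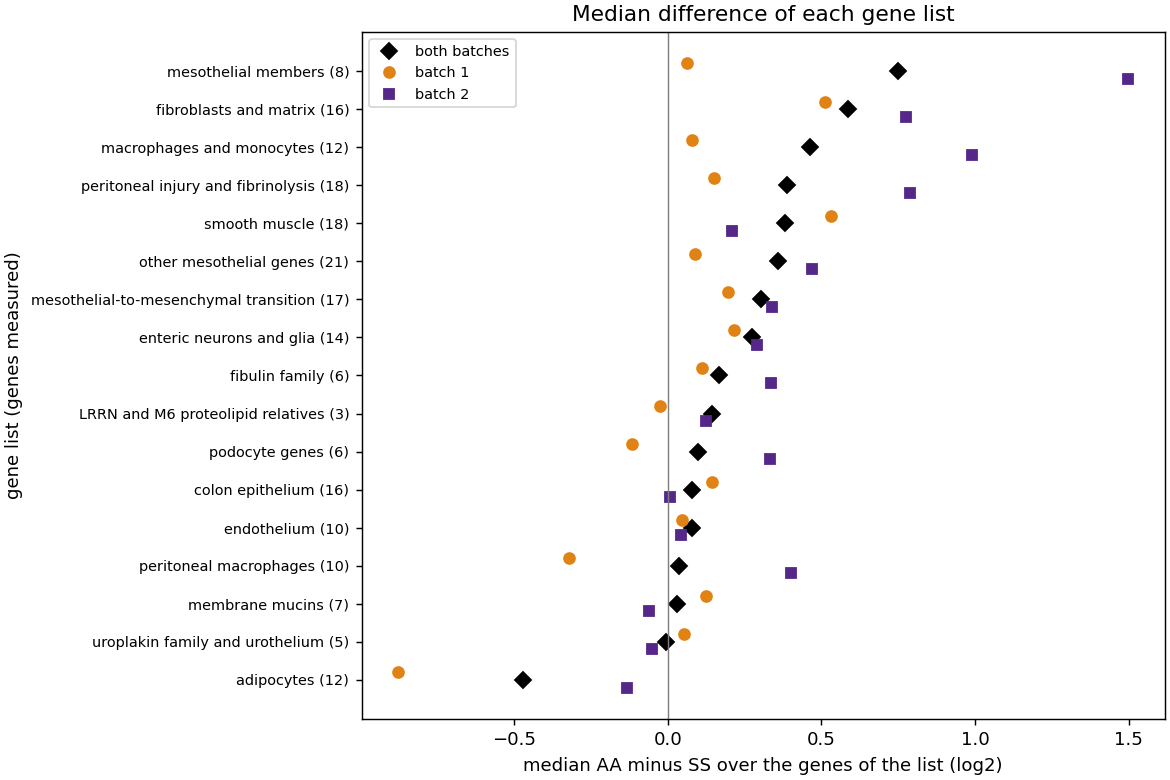
Median AA minus SS difference on the log2 scale (horizontal axis) of each gene list, with the number of genes measured in brackets; diamonds are both batches, circles batch 1 and squares batch 2. The 8 mesothelial genes and the macrophage genes lie at 0.06 and 0.08 in batch 1 and at 1.498 and 0.99 in batch 2, and smooth muscle genes at 0.53 and 0.21.

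Genes with the most similar pattern were ranked by Pearson's r with the mean of the 8 centred genes over the 8 arrays, among 16637 other genes. The median r was -0.04, and 203 genes (1.22%) had an r over 0.9. The first 10, with r of 0.97 to 0.997, were Pkhd1l1, Nkain4, Eya4, Ifitm2, Myrf, Aebp1, Ifnar2, Ifitm3, Tmem237 and Vsir. Pkhd1l1 and Nkain4 were also in the list of other mesothelial genes, and differed by 0.85 ± 0.37 (SE) and 0.75 ± 0.36 (SE). Pkhd1l1, a large membrane protein, differed by 0.09 in batch 1 and 1.62 in batch 2, and Nkain4, which interacts with the sodium pump, by -0.000995 and 1.497. Ifitm2 and Ifitm3, interferon-induced membrane proteins that block virus entry, differed by 0.48 and 0.78, and Ifnar2, a chain of the type I interferon receptor, by 0.63. Without AA replicate 3 and SS replicate 4, r of the 10 was 0.88 to 0.99 over 6 arrays, and 2 of them remained among the first 10 and 9 among the first 100.

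The sequence before the start site was read for members that varied together, to show which short motifs their promoters hold. RefSeq promoter windows of build GRCm38.p6 were found for 5 of the 8 genes, Upk3b, Muc16, Lrrn4, Gpm6a and Efemp1, with 6 windows in all since Gpm6a had 2. In the 250 bases before each start, 6 motifs were searched on both strands. GGAATG, the letters bound by TEAD factors of the Hippo pathway, was in 3 of the 6 windows, in Upk3b, Lrrn4 and the first of Gpm6a, against 12.6% of 32851 windows. The 3 windows are printed 5′ to 3′ in the direction of transcription, with that motif, or CATTCC on the other strand, in capitals. They lie at chr5:136038246-136038495 (plus strand) for Upk3b, chr2:132880863-132881112 (minus strand) for Lrrn4 and chr8:54779184-54779433 (plus strand) for Gpm6a.
Upk3b: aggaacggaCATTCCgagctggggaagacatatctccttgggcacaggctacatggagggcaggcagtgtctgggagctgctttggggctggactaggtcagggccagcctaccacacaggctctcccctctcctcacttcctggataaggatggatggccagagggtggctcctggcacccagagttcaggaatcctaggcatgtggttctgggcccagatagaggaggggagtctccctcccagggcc
Lrrn4: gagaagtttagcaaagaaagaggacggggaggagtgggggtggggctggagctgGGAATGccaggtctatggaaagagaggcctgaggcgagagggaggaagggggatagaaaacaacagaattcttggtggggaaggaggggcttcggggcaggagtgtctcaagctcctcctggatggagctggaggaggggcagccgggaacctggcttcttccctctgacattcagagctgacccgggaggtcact
Gpm6a: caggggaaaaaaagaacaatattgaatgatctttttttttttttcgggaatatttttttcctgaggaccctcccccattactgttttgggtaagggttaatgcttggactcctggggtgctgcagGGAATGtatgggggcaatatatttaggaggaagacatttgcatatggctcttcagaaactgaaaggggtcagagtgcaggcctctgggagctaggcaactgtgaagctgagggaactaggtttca
AGGTCA, the nuclear receptor half-site, was in Upk3b and Lrrn4 (14.0% of windows), and GATAAG, bound by a family of zinc finger factors, was in Upk3b (6.55%). TGANTCA (AP-1) and GGGCGG (GC box) were each in Efemp1 alone (6.75% and 32.7% of windows). GCGNGGG, a core shared by WT1 and EGR type sites, was in 0 of the 6 and in 20.3% of windows, so these letters are not in these stretches. A match shows the letters, not that a factor binds there.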

How the data were processed

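RNA of 8 pieces of distal colon was measured on Affymetrix MoGene 1.0 ST arrays. The authors deposited log2 expression values, with a row for each probe set. Per the submitters' processing notes, RMA (robust multi-array average), Affymetrix Power Tools and Partek 6.4 were used; the build and any batch step are not stated. The largest difference between the batch means of a tested probe set was under 0.00006, so the batch means had been removed before deposit. The authors' gene set enrichment table was not used.

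Of 23442 probe sets, 18154 had 1 gene symbol in the platform annotation and were tested, 1559 had several and 3729 were unnamed here. Differences were fitted in R 4.3.3 with limma 3.58.1 (lmFit, eBayes; batch and group as terms, 5 residual degrees of freedom), with Benjamini-Hochberg adjustment over all 18154, a threshold of 0.05 and no filter on dim probe sets. The fit was tested on simulated data. Precision is limited by the number of arrays. For lists and for likeness each gene was its probe set with the highest mean. Lists got counts and medians and no test. Summed linear levels are sums of 2 to the power of the deposited value.

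The members and lists were chosen with earlier results of these data known. Companion genes named were the 3 of highest level in each list or the up to 4 of smallest unadjusted p under 0.05; 10 genes were named for likeness. Alternatives were another batch or variance term, filters, scalings, and arrays or batches left out.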

Additional observations from a re-analysis of the deposited data

Results flagged for a closer look

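Upk1b in the AA arrays was set apart by 1 sample: the gap from AA replicate 3 (9.58) to the next AA array (7.84) was 0.883 of the whole range of the 4 AA arrays, above Dixon's 95% critical value of 0.829 for 4 samples. Of 18 sets of 4 arrays looked at this way, it was the only one past that value. Chance flags about 1 in 20 such sets, so about 1 among the 18, and the ratio sets an array of batch 2 against one of batch 1, whose levels were centred separately. The same array had the highest value of its batch in the other 7 mesothelial genes too. Without it the AA minus SS difference of Upk1b was 0.90, with 8 of 8 fits that left out single arrays at an unadjusted p under 0.05.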

How the results depend on the processing

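No alternative brought a mesothelial gene past an adjusted p of 0.05 in limma (lowest 0.223). Another batch or variance term, the filter, and all probe sets in the test leave the difference itself unchanged and could not reverse it. Of 143 single-gene differences under alternatives, these included, 138 kept their direction. Those that reversed were Efemp1 without SS replicate 2 (-0.0036, and up to 0.49 with other single arrays left out), Efemp1 without AA replicate 3 and SS replicate 4 together (-0.050), and, in batch 1 alone, Upk3b (-0.085), Gpm6a (-0.23) and Efemp1 (-0.17). In batch 1 alone 5 genes were higher, the median was 0.062 and none was at an unadjusted p under 0.05, and in batch 2 alone the median was 1.498 with 8. The number at an unadjusted p under 0.05 was 2 with quantile normalization, 1 with an intensity trend and robust variance, 1 without AA replicate 3 and SS replicate 4 together, and 1 to 8 with single arrays left out. The median with single arrays left out ran from 0.42 to 1.04. A filter at the median level removed Muc16. Over all probe sets, those lower at an unadjusted p under 0.05 numbered 751 with no batch term, 252 with that filter, 920 with quantile normalization, 823 with median centring, 1408 in batch 2 alone and 319 without AA replicate 3 and SS replicate 4, where 651 were higher. With single arrays left out they ran from 322 to 1121, and the higher ones from 585 to 1013. The filter tested fewer probe sets. Median centring shifted the median difference by -0.036 and quantile normalization by -0.012. Without a batch term the standard errors of the mesothelial genes were smaller, in Upk1b 0.475 against 0.490. Otherwise the cause of these changes was not tested. Of the 10 most similar genes 2 remained among the first 10 without AA replicate 3 and SS replicate 4. Whether shared replicate numbers pair the samples could not be decided. Deviations of same-numbered arrays from their group means correlated at -0.32, -0.09, -0.44 and -0.22. Same-numbered arrays share a batch, and removal of the batch means in itself pushes such correlations below 0. With the replicate number as a block (replicate block) 5 of the 8 genes were at an unadjusted p under 0.05, and 875 probe sets were higher and 369 lower, with 0 adjusted.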
